A study of Rattus norvegicus with 10 samples.

Results

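The genes described here encode the oxidative phosphorylation machinery of the rat submandibular gland, compared between spontaneously hypertensive rats (SHR) and Wistar-Kyoto (WKY) rats. A gene was included when its symbol starts with Nduf, Uqcr, Atp5 or Cox4 to Cox8, or is Sdha, Sdhb, Sdhc, Sdhd, Cyc1 or Dmac2l. This gave 83 of the 15168 named genes on the array, covered by 105 probes. Of the 83 genes, 82 passed the filter on dim probes and all of these 82 were well above background on all 10 arrays, so none entered through 1 strain alone. The remaining gene, Cox8c, a testis isoform of cytochrome c oxidase, was well above background on 1 SHR and 1 WKY array and was not tested. Among the 82, 71 are subunits of the complexes proper. The others are the 6 assembly factors named Ndufaf, the Ndufa10 paralogue Ndufa10l1, the pseudogene Cox6c-ps1, the supercomplex factor Cox7a2l, the inhibitor Atp5if1 and the coupling factor Dmac2l. No probe matched Cyc1 or any of the 13 mitochondrially encoded subunits by the accessions used, and these were not analysed here.

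Oxidative phosphorylation couples the oxidation of NADH and succinate to ATP synthesis in the inner mitochondrial membrane. Complexes I and II pass electrons to ubiquinone, complex III passes them on to cytochrome c, and complex IV reduces oxygen, while complexes I, III and IV pump the protons that drive the ATP synthase, complex V. In salivary glands the cells of the striated and granular ducts are rich in mitochondria, which fuel the ion pumps that modify the primary saliva, whereas the acinar cells secrete most of the fluid and protein. All subunits measured here are encoded in the nucleus.

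The study profiled gland RNA on 10 one-colour arrays, 5 from SHR and 5 from WKY. SHR rats are inbred and become hypertensive with age, and WKY rats serve as their usual normotensive comparison. All rats were males of 14 weeks, the control rats were matched for age and weight, and the labels name no treatment or engineered allele in either strain. The strains differ across the genome, so strain and blood pressure cannot be told apart. Each array is named by its strain and by the numbers in its title. A level below is the log2 processed intensity minus the array's 75th percentile, and a difference is the SHR mean minus the WKY mean on that scale, with the standard error (SE) of the limma fit over 14711 genes.

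The arrays gave 75th percentiles from 333 to 648 intensity units, with 94.8 to 97.7% of spots well above background. Of the gland markers, 7 of 8 acinar genes and 5 of 6 granular duct genes were measured, with mean log2 levels of 3.26 to 3.53 in SHR and 4.01 to 4.43 in WKY for the acinar list. Its median difference was 0.23, with 5 of 7 genes above 0, and the lower SHR mean came with Smgc and Cyss, which were lower by the limma test (−4.10 and −4.06), while Oprpn was higher (0.61). Smgc and Cyss passed on slide 2 alone (adjusted p = 0.0247 and 0.0225) and Oprpn did not (0.531). The granular duct list had means of 2.77 to 5.44 in SHR and 5.19 to 5.44 in WKY, and its lowest value came from array SHR 3-3, which stood apart from the other SHR arrays. Markers of skeletal muscle, which is rich in these complexes, had means of −1.06 to −0.56 in SHR and −1.01 to −0.76 in WKY. Macrophage markers had means of −0.68 to 0.15 in SHR and 0.16 to 0.54 in WKY, and 2 of 6, Aif1 and Cd68, were lower in SHR by the limma test, beside 2.85% of all genes. Neither passed on slide 2 alone (adjusted p = 0.539 and 0.321). The striated duct and ion transport list had a median difference of −0.43 with 7 of 8 genes below 0, and 1 of 8, Slc4a4, was lower (−0.47), which did not pass on slide 2 alone (adjusted p = 0.791). The part of these cell types in the differences below was not tested. Arrays scanned in 1 pass were treated as 1 slide. Slide 1 held only SHR arrays (2-3, 3-1, 3-3 and 3-4), slide 3 only WKY arrays (1-2 and 1-3), and slide 2 held SHR 2-1 with WKY 1-5, 4-1 and 4-2, so the comparison within a slide rests on a single SHR array.

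Most of the oxidative phosphorylation genes had closely similar levels in the 2 strains, and the few that differed were lower in SHR. At an adjusted p under 0.05 (limma, Benjamini-Hochberg over all genes), 0 of 82 genes were higher in SHR, beside 1.51% of all genes tested, and 4 (4.88%) were lower, beside 2.85% of all genes. The 4 were Dmac2l, Ndufa10, Ndufb8 and Ndufa10l1. At an unadjusted p under 0.05 there were 13 genes. The strains did not overlap in 6 genes with every SHR array below every WKY array (7.32%, beside 4.11% of all genes), namely the same 4 with Ndufv3 and Uqcr10. On the brightest probe, which stood for each gene, none of the set had every SHR array above every WKY array, as 3.14% of all genes did. A dimmer probe did so in each of Ndufv3, Ndufb10 and Ndufb4. In Ndufv3 and Ndufa10l1 a dimmer probe had every SHR array below every WKY array. Both shares of lower genes were within a few genes of the background.

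The intervals were narrow for most genes. The fit had no term for the slide, so they do not cover a difference between slides, which is confounded with strain here. In 75 of 82 genes (91.5%) the 95% interval of the difference lay within 1.5-fold in either direction, as it did in 79.2% of all genes. The median difference was −0.02 over the 82 genes and −0.02 over all genes, and the median size of the difference was 0.10 against 0.13. The median residual SD between arrays was 0.14 for the 82 genes and 0.18 for all genes. By complex, 3 of 31 complex I genes and 1 of 16 complex V genes were lower, and 0 of 6 complex I assembly factors, 0 of 4 complex II, 0 of 8 complex III and 0 of 17 complex IV genes passed in either direction. The median difference was −0.04 for complex I, 0.12 for its assembly factors, −0.01 for complex II, 0.00 for complex III, −0.04 for complex IV and 0.02 for complex V. The split of calls over all genes depended on the scaling. It was 222 higher and 419 lower here, 351 and 421 with quantile normalisation, 336 and 386 with scaling to the median, and 423 and 432 with the authors' deposited values.

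**Figure D1:**
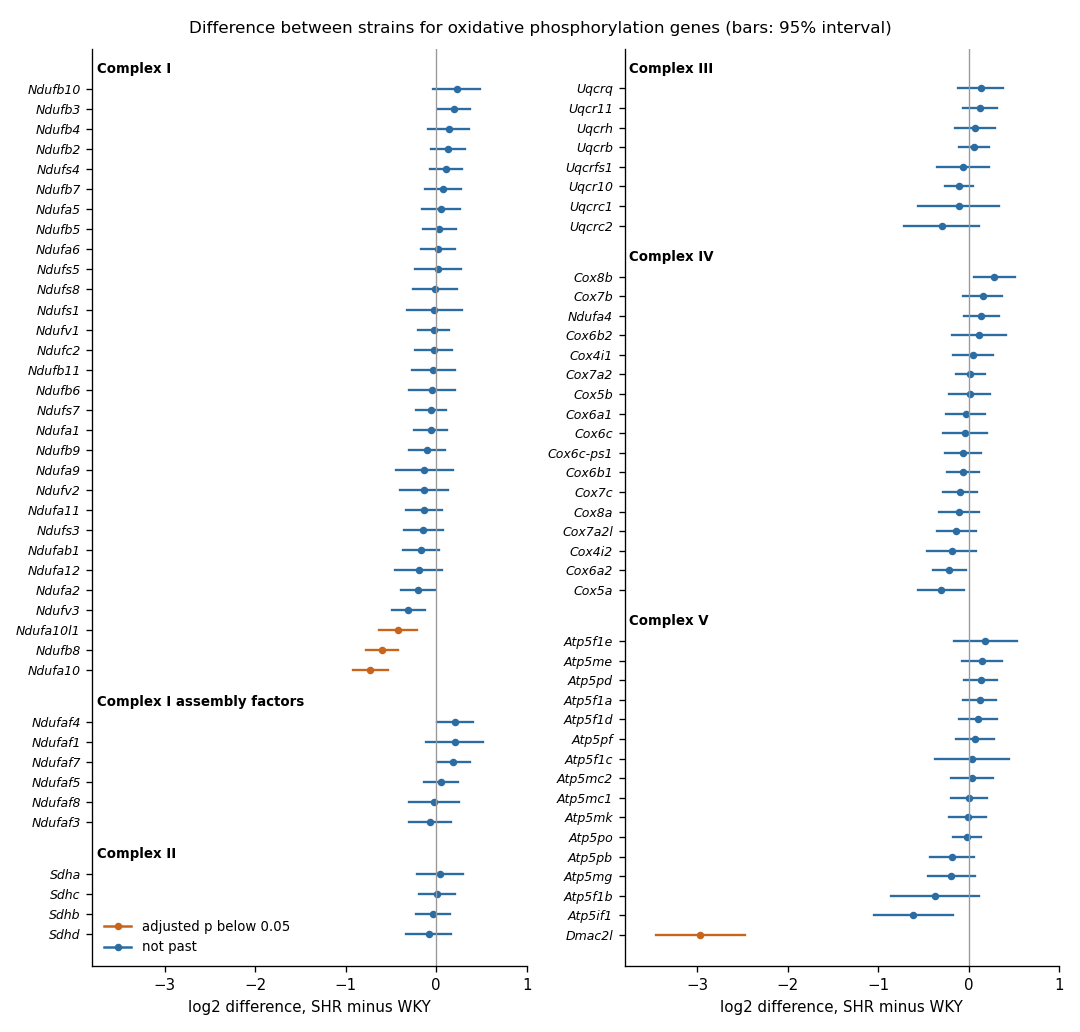
Each point is the log2 difference, SHR minus WKY, of a gene of the set, with its 95% interval from the limma fit, ordered by size within each complex; 1 gene that did not pass is not drawn. The 4 genes past the threshold (orange) lie at −2.97 (Dmac2l), −0.73 (Ndufa10), −0.60 (Ndufb8) and −0.42 (Ndufa10l1), and the other points lie between −0.61 (Atp5if1) and 0.28 (Cox8b).

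Because nuclear subunit genes are classically described as targets of the factors NRF1, GABP and YY1, their promoters were searched for the core letters of these motifs. RefSeq's promoter table (GRCr8, 250 bases before to 50 after the start) held 72 of the 82 genes. The NRF1 core TGCGCA, which is its own reverse complement, stood in 27.8% of these 72 and in 7.6% of all 27457 promoters. The ETS core of the GABP site, CCGGAAG on either strand, stood in 30.6% and 9.2%, and the YY1 core, AAGATGG on either strand, in 22.2% and 7.3%. At least 1 of the 3 stood in 61.1% of the 72 promoters and in 21.3% of all, where the median GC content was 56.7% and 52.3%. The 27457 promoters include those of genes not tested on the array, whereas the 72 belong to tested genes. The ETS and YY1 cores can share the letters AAG, and a match is only a match of letters.

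The promoters of 3 of the 4 genes that differed are shown first, followed by that of Ndufa6, the only gene with all 3 motifs among the 72 searched. Capitals mark the motif matches. Dmac2l is at chr6:93941448-93941747 on the plus strand, Ndufa10 at chr9:100489215-100489514 on the minus strand, Ndufb8 at chr1:253362887-253363186 on the minus strand and Ndufa6 at chr7:115750268-115750567 on the minus strand, all in GRCr8 and printed 5′ to 3′.
Dmac2l: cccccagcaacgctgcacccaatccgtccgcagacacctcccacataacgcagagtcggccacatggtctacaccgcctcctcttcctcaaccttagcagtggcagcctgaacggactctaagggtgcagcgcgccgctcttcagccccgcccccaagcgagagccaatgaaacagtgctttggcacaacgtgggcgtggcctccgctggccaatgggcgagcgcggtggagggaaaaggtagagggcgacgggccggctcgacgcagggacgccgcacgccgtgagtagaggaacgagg
Ndufa10: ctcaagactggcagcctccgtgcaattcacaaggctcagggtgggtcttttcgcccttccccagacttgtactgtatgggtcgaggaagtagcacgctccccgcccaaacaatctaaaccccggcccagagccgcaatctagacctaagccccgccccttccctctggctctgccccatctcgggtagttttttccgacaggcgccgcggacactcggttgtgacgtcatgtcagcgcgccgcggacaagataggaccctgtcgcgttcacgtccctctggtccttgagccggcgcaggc
Ndufb8: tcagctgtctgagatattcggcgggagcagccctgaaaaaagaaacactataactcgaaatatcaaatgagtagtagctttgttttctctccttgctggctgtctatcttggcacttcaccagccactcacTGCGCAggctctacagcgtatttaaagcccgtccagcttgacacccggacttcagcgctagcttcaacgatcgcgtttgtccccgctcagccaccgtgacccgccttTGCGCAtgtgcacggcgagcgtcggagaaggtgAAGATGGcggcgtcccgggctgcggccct
Ndufa6: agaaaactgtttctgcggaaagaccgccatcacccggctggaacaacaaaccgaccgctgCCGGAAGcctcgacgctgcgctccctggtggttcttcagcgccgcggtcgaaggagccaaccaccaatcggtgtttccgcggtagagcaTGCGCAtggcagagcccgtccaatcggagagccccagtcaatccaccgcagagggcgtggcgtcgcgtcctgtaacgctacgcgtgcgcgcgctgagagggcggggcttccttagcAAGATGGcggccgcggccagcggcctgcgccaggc

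These windows of Dmac2l and Ndufa10 held none of the 3 motifs, whereas that of Ndufb8 held 2 NRF1 cores and 1 YY1 core. Ndufa6, an accessory subunit of complex I, had 1 match of each and a difference of 0.02 ± 0.09 (SE). No strain's own sequence was read, so the letters are those of the reference assembly.

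Complex I, the NADH dehydrogenase, was the largest group, and 3 of its 31 genes were lower in SHR, beside 2.85% of all genes. These 3 were accessory subunits or a related copy, as most of its genes measured here are. Ndufa10 encodes an accessory subunit of the membrane arm that belongs to the nucleoside kinase family. Its log2 level in SHR was −0.40, −0.38, −0.19, −0.47 and −0.17 on arrays 2-1, 2-3, 3-1, 3-3 and 3-4. In WKY it was 0.38, 0.45, 0.48, 0.48 and 0.24 on arrays 1-2, 1-3, 1-5, 4-1 and 4-2. Every SHR array was below every WKY array. The difference was −0.73 ± 0.09 (SE, n = 5 and 5), a 1.66-fold lower level in SHR with an adjusted p of 5.694e-04 (limma). On slide 2 alone it was −0.80, with an adjusted p of 0.211, and with the slide as a block the adjusted p was 0.157.

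Ndufb8 encodes an accessory subunit of the membrane arm that is widely used as a marker of assembled complex I. Its log2 level was 2.95, 3.03, 3.04, 2.96 and 3.10 on the SHR arrays and 3.61, 3.49, 3.72, 3.73 and 3.52 on the WKY arrays, in the same order. The strains did not overlap, and the SHR arrays spanned a narrower range than the WKY arrays. The difference was −0.60 ± 0.08 (SE), 1.51-fold lower in SHR with an adjusted p of 9.619e-04 (limma). On slide 2 alone it was −0.70 with an adjusted p of 0.256, and 0.154 with the slide as a block.

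Ndufa10l1 is a gene closely related to Ndufa10 and was formerly listed under the same name, so probes of the pair could share signal and each value is uncertain to that extent. On its brighter probe the log2 level was 1.27, 1.31, 1.52, 1.18 and 1.44 in SHR and 1.75, 1.95, 1.55, 1.81 and 1.79 in WKY. The highest SHR array, 3-1, was just below the lowest WKY array, 1-5. The difference was −0.42 ± 0.10 (SE), 1.34-fold lower with an adjusted p of 0.0291 (limma). Its second probe had a difference of −0.37, again with every SHR array below every WKY array, and an adjusted p of 0.080 over 29266 probes. The call was lost without SHR 2-1 or 2-3, or without WKY 1-2, 1-3, 4-1 or 4-2, with adjusted p-values of 0.0544 to 0.0837. On slide 2 alone the difference was −0.44 with an adjusted p of 0.602, and 0.948 with the slide as a block.

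**Figure D2:**
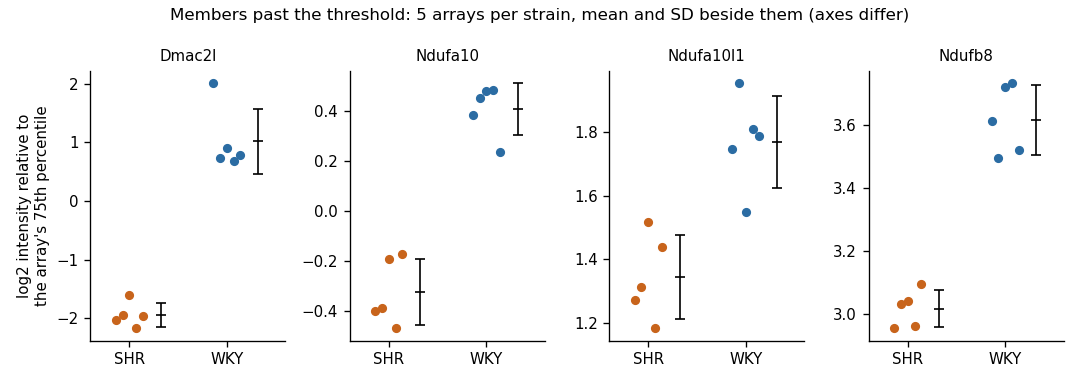
Log2 levels of the 4 genes past the threshold, 1 point per array in the order of the array names (orange SHR, blue WKY), with the mean and SD of each strain beside them and a separate axis for each gene. In all 4 genes the SHR points lie below the WKY points, and the WKY array 1-2 of Dmac2l, at 2.01, lies above the other 4 WKY arrays (0.69 to 0.90).

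Ndufv3, an accessory subunit of the NADH-oxidising module that is made in a short and a long splice form, gave opposite differences on its 3 probes, which were all annotated with the same transcript. Over 29266 probes, 1.28% were higher and 2.55% lower in SHR. The brightest, A_64_P103707, had log2 levels of 2.99, 2.96, 3.09, 2.99 and 3.15 in SHR and 3.28, 3.21, 3.40, 3.51 and 3.31 in WKY. It had every SHR array below every WKY array, with a difference of −0.31 ± 0.08 (SE) that did not pass among genes (adjusted p = 0.0577, limma). A_64_P141541 had a difference of −0.33, again without overlap (adjusted p = 0.085 over probes). The third probe went the other way.

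That probe, A_42_P535085, had log2 levels of −0.28, −0.30, −0.04, −0.49 and −0.10 in SHR and −0.62, −0.64, −0.66, −0.79 and −0.66 in WKY. Every SHR array was above every WKY array, slide 2 included, with a difference of 0.44 ± 0.10 (SE) that passed over all probes (adjusted p = 0.0267, limma). Averaging the 3 probes gave −0.07. RefSeq lists 2 transcripts for the gene, and which of them each probe detects was not tested, so no direction is given for Ndufv3 as a whole.

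**Figure D3:**
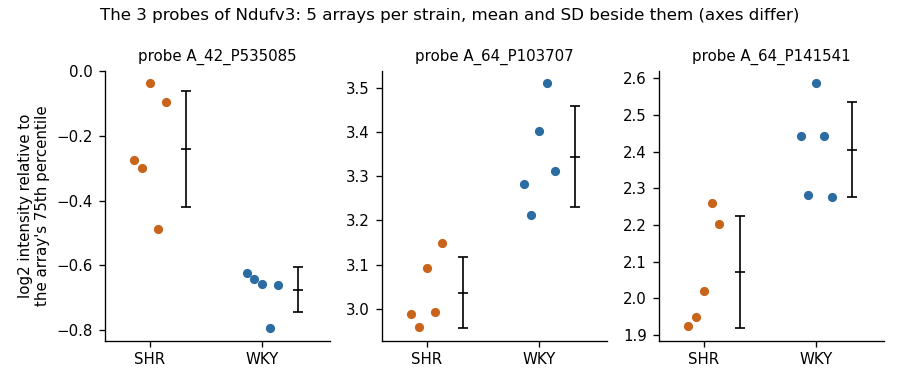
Log2 levels on the 3 Ndufv3 probes, 1 point per array (orange SHR, blue WKY), with the mean and SD of each strain and a separate axis for each probe. The probe on the left is higher in SHR by 0.44 and the other two are lower by 0.31 and 0.33 in the means, all without overlap between strains.

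The other 27 genes of complex I did not pass. Ndufb10, a membrane arm subunit, had the largest of their differences, 0.23 ± 0.12 (SE), on a brighter probe whose strains overlapped. Its second probe had a difference of 0.27 with every SHR array above every WKY array, as had the second probe of Ndufb4, another membrane arm subunit, with 0.16. Neither passed over all probes (adjusted p = 0.124 and 0.278, limma). The catalytic core showed small differences. Ndufv1, which binds the flavin and NADH, had −0.03 ± 0.08 (SE) and an SHR mean of 3.36 ± 0.07 against 3.38 ± 0.09 in WKY (SD, n = 5 each). Ndufs1, the large iron-sulfur subunit, had −0.02 ± 0.14. The core subunits Ndufs3, Ndufs7, Ndufs8 and Ndufv2, lay between −0.14 and −0.02.

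Among the factors that assemble complex I, Ndufaf4 had an SHR mean of 0.23 ± 0.16 and a WKY mean of 0.02 ± 0.07 (SD), a difference of 0.21 ± 0.09 (SE) with an adjusted p of 0.211. Its other 3 probes had differences of 0.04 to 0.16. Ndufaf1, which helps build the membrane arm, differed by 0.21 ± 0.14 and Ndufaf7, a methyltransferase, by 0.19 ± 0.08, with adjusted p-values of 0.452 and 0.219. The second probe of Ndufaf7 had a difference of −0.10. Ndufaf3, Ndufaf5 and Ndufaf8 lay between −0.07 and 0.05. None of the 6 passed, and the strains overlapped in each.

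The 4 subunits of complex II, succinate dehydrogenase, which also serves the citric acid cycle, had the smallest differences of any complex, from −0.08 to 0.04. Sdha, the flavoprotein that oxidises succinate, had log2 levels of 2.17, 2.32, 2.68, 1.98 and 2.38 in SHR and 2.26, 2.22, 2.25, 2.24 and 2.38 in WKY. The WKY range lay inside that of SHR, whose extremes were arrays 3-1 and 3-3. The differences were 0.04 ± 0.12 (SE) for Sdha and −0.04 ± 0.09 for the iron-sulfur subunit Sdhb. They were 0.01 ± 0.09 and −0.08 ± 0.11 for the membrane anchors Sdhc and Sdhd.

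In complex III the largest difference was that of Uqcrc2, and it rested on 1 array. Uqcrc2, a core protein of the matrix side, had log2 levels of 2.20, 2.42, 2.71, 1.41 and 2.23 in SHR and 2.52, 2.35, 2.42, 2.65 and 2.50 in WKY. Its difference was −0.29 ± 0.19 (SE, adjusted p = 0.412) and −0.10 without SHR 3-3. Its partner Uqcrc1 differed by −0.11 ± 0.21, and by 0.09 without that array. The Rieske iron-sulfur protein Uqcrfs1 differed by −0.06 ± 0.13, and by 0.04 without it, over 9 arrays because its spot on WKY 1-3 was marked as an outlier. The small subunits Uqcrq and Uqcr11 differed by 0.13 ± 0.11 and 0.12 ± 0.09, and the other 2 probes of Uqcr11 by −0.15 and −0.03. Uqcr10, another small subunit, had every SHR array below every WKY array with a difference of only −0.10 ± 0.07, which did not pass (adjusted p = 0.449, limma).

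Of the 17 complex IV genes none passed, and the 95% interval of each lay within 1.5-fold. Cox5a, a subunit of the matrix side, had log2 levels of 4.27, 4.12, 4.05, 3.67 and 4.07 in SHR and 4.19, 4.33, 4.27, 4.60 and 4.32 in WKY. SHR 2-1 overlapped with the WKY arrays. The difference was −0.30 ± 0.12 (SE, adjusted p = 0.169), and −0.21 without SHR 3-3. Cox8b, the heart and muscle isoform of subunit VIII, had levels of −2.42, −2.71, −2.51, −2.47 and −2.27 in SHR and −2.68, −2.96, −2.86, −2.70 and −2.60 in WKY. It had the largest difference upward among the 82 genes, 0.28 ± 0.10, which did not pass (adjusted p = 0.143, limma). It passed with the authors' deposited values (0.34, adjusted p = 0.0488). It also passed with the first title number and with the slide as a random block (adjusted p = 0.0454 and 0.0289, limma).

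The tissue isoforms of complex IV therefore showed no called shift. The broadly expressed isoforms Cox4i1, Cox6a1, Cox6b1, Cox7a2 and Cox8a had differences of 0.05, −0.03, −0.06, 0.02 and −0.10. Cox4i2, the isoform best known from lung, differed by −0.18 ± 0.12 (SE). Cox6a2, the heart and muscle isoform, differed by −0.21 ± 0.08, and Cox6b2, the testis isoform, by 0.12 ± 0.14. For Cox7a2 the SHR mean was 4.13 ± 0.06 and the WKY mean 4.11 ± 0.07 (SD), which is less apart than the spread between arrays. The isoform Cox7a1 was not analysed here.

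Complex V held the gene with the largest difference, Dmac2l, which encodes the coupling factor B protein of the ATP synthase, also known as subunit s. Its log2 level was −2.02, −1.95, −1.60, −2.17 and −1.97 on the SHR arrays and 2.01, 0.73, 0.90, 0.69 and 0.79 on the WKY arrays. The strains were far apart, and WKY 1-2 lay well above the other 4 WKY arrays. The difference was −2.97 ± 0.23 (SE), with a 95% interval of −3.46 to −2.48, which is 7.81-fold lower in SHR (adjusted p = 9.935e-06, limma). Without WKY 1-2 it was −2.72 (adjusted p = 1.266e-07). On slide 2 alone it was −2.82 with an adjusted p of 0.00192, and with the slide as a block 0.0125. The gene rests on 1 probe, A_44_P1050444, which was well above background on all 10 arrays. A sequence difference between the strains under that probe was not tested.

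The other complex V genes did not pass. Atp5if1, the inhibitor that blocks ATP hydrolysis by the enzyme, had log2 levels of 2.54, 2.50, 3.00, 1.73 and 2.78 in SHR and 3.03, 3.19, 2.83, 3.40 and 3.16 in WKY. SHR 3-1 overlapped with the WKY arrays, and SHR 3-3 was the lowest. The difference was −0.61 ± 0.20 (SE), the second largest of complex V, with an adjusted p of 0.108, and −0.42 without SHR 3-3 (adjusted p = 0.102). It passed with array weights (−0.55, adjusted p = 0.0473). It also passed with the first title number and with the slide as a random block (adjusted p = 0.0351 and 0.0104, limma).

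The catalytic F1 subunits did not share a direction. Atp5f1b, the beta subunit that holds the catalytic sites, had levels of 2.79, 2.86, 3.24, 1.67 and 2.70 in SHR and 2.97, 3.07, 2.96, 3.12 and 2.99 in WKY. Its difference of −0.37 ± 0.22 became −0.12 without SHR 3-3. Atp5f1a, the alpha subunit, differed by 0.12 ± 0.08, with levels of 5.19 to 5.53 in SHR and 5.20 to 5.31 in WKY. The gamma, delta and epsilon subunits, Atp5f1c, Atp5f1d and Atp5f1e, differed by 0.04, 0.10 and 0.18. In the membrane part, Atp5mc1 and Atp5mc2, which encode the same mature c subunit of the rotor ring, differed by 0.01 ± 0.09 and 0.03 ± 0.11. The stalk and membrane subunits Atp5me, Atp5mg, Atp5mk, Atp5pb, Atp5pd, Atp5pf and Atp5po lay between −0.19 and 0.15.

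Variation within SHR was larger than the strain difference for many of these genes, and array SHR 3-3 was its main source. SHR 3-3 had the lowest of the 10 levels in 39 of 82 genes and the highest in 10, counts that were not taken over all genes. Against the mean of the other 4 SHR arrays, 13 of 82 genes were more than 0.5 lower on it and 0 more than 0.5 higher, whereas 8.01% of all genes were lower and 8.38% higher by as much. Its median was −0.14 over the 82 genes and 0.13 over all genes. The largest shortfalls were −1.23 for Atp5f1b, −0.997 for Uqcrc1, −0.98 for Uqcrc2, −0.97 for Atp5if1 and −0.93 for Atp5f1c. Next came Ndufa9, Ndufa12 and Ndufs1, at −0.73, −0.60 and −0.59. Not all genes shared this. Ndufaf8, Ndufs5, Atp5f1e and Uqcrq were 0.49, 0.47, 0.47 and 0.42 higher on the same array.

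The 5 genes with the largest shortfalls on SHR 3-3 were the 5 highest on SHR 3-1, although each of these arrays enters the mean the other is set against. Atp5f1b, Uqcrc1, Atp5f1c, Uqcrc2 and Atp5if1 were 0.74, 0.73, 0.69, 0.64 and 0.61 higher on SHR 3-1 than the mean of the other 4 SHR arrays. Atp5f1e and Ndufaf8 stood at −0.59 and −0.52 on it. On the 5 WKY arrays a single gene of the set, Dmac2l on WKY 1-2, lay more than 0.5 from the mean of the other 4. By complex, the median on SHR 3-3 was −0.19 for complex I, −0.32 for complex II, −0.14 for complex III, −0.08 for complex IV and −0.12 for complex V. It was 0.15 for the complex I assembly factors.

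Markers of gland cell types also stood apart on SHR 3-3. On SHR 3-3 the granular duct list had a median of −2.64 against the other 4 SHR arrays, with 5 of 5 genes below 0, and the striated duct and ion transport list had −1.30, with 7 of 8 below 0. On SHR 3-1 the same lists stood at 0.36 and 0.79. The remaining SHR arrays were also above 0, and each is set against a mean that includes SHR 3-3. On SHR 2-1, 2-3 and 3-4 the granular duct list had 0.27, 0.47 and 1.01. The striated duct and ion transport list had 0.05, 0.12 and 0.53 on them. The acinar list had 0.31 on SHR 3-3, with 1 of 7 below 0, and −0.26 on SHR 3-1. The macrophage list had −0.57 on SHR 3-3 and 0.32 on SHR 3-1, with 0.28, −0.004 and 0.37 on SHR 2-1, 2-3 and 3-4. The part of cell composition in the values of the 82 genes was not tested, and in whole glands fewer cells of a type and less RNA per cell cannot be told apart. SHR 3-3 also had the lowest 75th percentile of the 10 arrays, 333. Without it, 0 genes were higher and 4 lower, as with it, and the median difference over the 82 genes was 0.02.

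**Figure D4:**
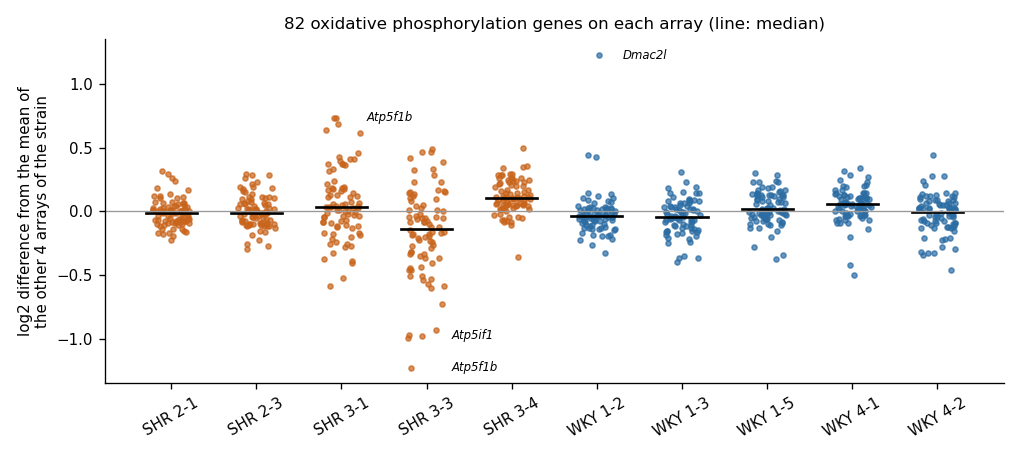
Each point is 1 of the 82 genes on 1 array, as the log2 difference from the mean of the other 4 arrays of the same strain, and each line is the median of the array. SHR 3-3 has a median of −0.14 and reaches −1.23 (Atp5f1b), SHR 3-1 reaches 0.74 (Atp5f1b), and on the WKY arrays only Dmac2l on WKY 1-2 lies beyond 0.5 from 0.

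Few genes in the rest of the pathway passed. Over all genes tested 1.51% were higher and 2.85% lower, so few or none would be called in lists of this size. Of 46 assembly factors outside the set, 38 were tested, with 1 higher and 0 lower. That gene was Pet100, an assembly factor of complex IV, with a mean of 1.46 in SHR and 0.80 in WKY, a difference of 0.66 ± 0.13 (SE, adjusted p = 0.0113, limma) and no overlap. On slide 2 alone its difference was 0.82 (adjusted p = 0.181). Of the electron carriers and ubiquinone synthesis genes 20 of 21 were tested and 0 passed. Cytochrome c, Cycs, differed by −0.21 ± 0.11. Of the pyruvate dehydrogenase and citric acid cycle genes 16 of 17 were tested and 0 passed, with a median of −0.10 and 12 of 16 below 0. On SHR 3-3 that list had a median of −0.38 with 15 of 16 below 0, and the inner membrane carriers and uncoupling proteins −0.94 with 5 of 5. Other lists did not share this. On the same array the outside assembly factors had 0.18 (12 of 38 below 0) and the mitochondrial ribosome 0.13 (21 of 66). The electron carriers and ubiquinone synthesis genes had 0.10 (8 of 20) and the nuclear regulators −0.02 (8 of 14).

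Among the nuclear regulators of mitochondrial genes, 14 of 15 were tested and 0 passed. Ppargc1a, the coactivator of mitochondrial biogenesis, differed by 0.28 ± 0.11 (SE, adjusted p = 0.170, limma), Nrf1 by 0.15 ± 0.12, and Gabpa and Tfam by −0.01 and −0.02. Of the inner membrane carriers and uncoupling proteins 5 of 7 were tested and 0 passed. Of 66 mitochondrial ribosome genes, all tested, 1 was higher and 1 lower. Mrpl4 had a mean of −1.12 in SHR and 0.05 in WKY, a difference of −1.17 ± 0.11 (adjusted p = 8.03561e-05), and Mrpl38 differed by 0.40 ± 0.10 (adjusted p = 0.0410). Both are proteins of the large subunit, and in both the strains did not overlap. On slide 2 alone they differed by −0.97 and 0.42, with adjusted p-values of 0.104 and 0.602.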

How the data were processed

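RNA of the submandibular gland of 10 male rats was measured on one-colour Agilent arrays. Agilent Feature Extraction gave the processed signal, per the file headers, as a linear intensity with the background subtracted and no scaling between arrays. Outlier and background marks come per spot in the same deposited files (unit other). The authors also deposited log2 values of 30423 probes, with the same median, 7.19, in every column. The steps that made them are not given in the sources used here, and neither are their centring and scaling rules.

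Log2 intensity was reduced by each array's 75th percentile over 42877 non-control spots, outlier-marked spots were set to missing (45 missing values among kept probes), and spots of a probe were averaged. A probe was kept if 5 or more of the 10 arrays had it well above background, which left 29266 of 30367. Through their RefSeq accessions (gene table of GRCr8) 18005 probes had a symbol and 12362 had none. The brightest kept probe stood for a gene. Strains were compared with limma 3.58.1 (lmFit and eBayes, in R 4.3.3 with the data.table package, version 1.17.8), two-sided, with Benjamini-Hochberg adjustment over 14711 genes and a threshold of 0.05. The labels describe 5 rats per strain, and that number limits the precision. On simulated data for SHR minus WKY over 14711 genes, 56% of changes of 0.5, 90% of 1, 98% of 2 and 100% of 4 (log2) were recovered. The simulated noise was independent between genes and arrays and held no slide effect. These shares therefore do not cover differences between slides or an array that stands apart.

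The genes named are those past the threshold, the 2 largest differences that did not pass in each complex and among the Ndufaf factors, the tissue isoforms of complexes IV and V, the catalytic subunits, and a gene whose probes disagree; others are given by range or were chosen after their values were seen. A few genes enter the counts without being named here. The members and lists were chosen with earlier results of these data known. Genes with similar profiles over the arrays were not sought, since the arrays form 2 strain clusters of 5. Alternatives were other background corrections, scalings, filters, probe rules, variance models, the slide or the first title number as a block, and leaving out each array. The fits of each probe on its own were chosen after seeing the data. Figures were drawn with matplotlib 3.10.9 under Python 3.11.15 (pandas 2.3.3, numpy 2.4.6).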

Additional observations from a re-analysis of the deposited data

Results flagged for a closer look

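Each strain's 5 arrays were examined for a single array far from the others in the 32 genes named, and 3 of 64 strain groups had one. Chance flags about 1 in 20 groups. The level of Dmac2l on WKY 1-2 was 2.01, with the other 4 WKY arrays at 0.69 to 0.90. Sdha, the succinate-oxidising subunit, had 2.38 on WKY 4-2, with the others at 2.22 to 2.26. Ndufv1, the flavin-binding subunit of complex I, had 3.48 on SHR 2-3, with the others at 3.31 to 3.35.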

How the results depend on the processing

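The count of genes lower in SHR, 4, was 1 with the slide as a block and 1 on slide 2 alone (Dmac2l in both), 10 with the slide as a random block, and 3 to 4 when each array was left out in turn. The count higher in SHR, 0, was 1 with the authors' deposited values and 1 with the first number of the title as a random block (Cox8b in both), 4 with the slide as a random block, and 0 when any 1 array was left out. The random blocks had negative estimated correlations, −0.192 for the slide and −0.158 for the title number. The median difference over the 82 genes lay between −0.06 and 0.02. Of 96 values of the 4 called genes under the alternatives, 84 kept the call and 12 lost it in the same direction. Of 672 values of the other named genes, 14 passed the threshold and 18 moved by more than the spread between arrays. Ndufv3 passed with quantile normalisation (adjusted p = 0.0351), the authors' deposited values (0.0343), array weights (0.0461) and both random blocks (0.00562 and 0.0190). Over all genes, 222 higher and 419 lower became 12 and 32 with the slide as a block, 14 and 38 on slide 2 alone, 1350 and 2101 with the slide as a random block and 669 and 1110 with the title number, and ranged over 125 to 237 and 218 to 512 without 1 array. The cause of these changes was not tested. No paired analysis was possible because the strains share no replicate numbers.

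The limits are the confounding of slide with strain, since only SHR 2-1 shares a slide with WKY arrays, the single probe behind Dmac2l, Ndufa10 and Ndufb8, and the shared sequence of Ndufa10 and Ndufa10l1. All 82 genes were well above background on all 10 arrays.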

Other observations

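Of the genes near the 4 that differed, in RefSeq's gene order, some were not tested and those tested did not pass. Near Dmac2l, Cdkl1 differed by −0.01 ± 0.11 (SE), Sos2 by 0.09 ± 0.08 and Map4k5 by 0.11 ± 0.11. Farther out, Atl1 differed by −0.30 ± 0.14 and Sav1 by −0.44 ± 0.13 (adjusted p = 0.244 and 0.0866, limma). Near Ndufa10, Or9s23b differed by −0.33 ± 0.10 with every SHR array below every WKY array and an adjusted p of 0.0806. Beside Ndufb8, Sec31b, a coat protein of vesicles that leave the endoplasmic reticulum, differed by −0.04 ± 0.09 and Hif1an, which hydroxylates hypoxia-inducible factor, by −0.13 ± 0.11. Slf2, 3 genes away, differed by 0.35 ± 0.11 with every SHR array above every WKY array and an adjusted p of 0.101 (limma). Within 4 genes on either side of Dmac2l, Ndufa10, Ndufa10l1 and Ndufb8, none of the neighbours tested passed. Over all genes tested, 1.51% were higher and 2.85% lower, so few or none would be called among so few neighbours.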
